A study of Mus musculus with 12 samples.

Results

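The 3 TGFb ligand genes, Tgfb1, Tgfb2 and Tgfb3, and the 4 genes for latent TGFb binding proteins, Ltbp1, Ltbp2, Ltbp3 and Ltbp4, were followed in EMS404 cells. The 7 genes were chosen by name as the ligand and latent binding protein families. All 7 were found among the 15720 gene identifiers of the expression table and all 7 passed the filter on low values, a mean of at least 0.5 FPKM over the libraries, which left 11208 genes for testing. FPKM is the number of fragments per kilobase of transcript, scaled to the size of the library, so levels of different genes can be set side by side per length.

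EMS404 is a line of mouse hepatic stellate cells, the vitamin A storing pericytes of the liver that become matrix-producing myofibroblasts when activated. All 4 groups share its C57Bl6 origin, its SV40 immortalization and its expression of human TLR4, and each group holds 3 libraries of total RNA. The groups are Bmal1 siRNA with TGFb, scrambled siRNA with TGFb, Bmal1 siRNA with vehicle, and scrambled siRNA with vehicle. TGFb was given at 10 ng/mL for 24 h, starting 48 h after transfection. The labels used here do not say which isoform was given. Bmal1, whose gene is listed as Arntl, is the transcription factor that drives the core circadian clock together with its partner CLOCK. The comparisons ask how TGFb changed the 7 genes under each siRNA and whether lowering Bmal1 altered that response. With a single cell line, the values describe that line only.

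TGFb ligands are made as precursors whose cleaved prodomain, the latency-associated peptide, stays wrapped around the mature dimer and keeps it inactive. LTBP1, LTBP3 and LTBP4 are covalently bound to the prodomain in the secretory pathway and tether the latent complex to fibronectin and fibrillin fibres. LTBP2 belongs to the same family and binds fibrillin but is not known to bind latent TGFb. Integrins of the alpha-v group and several proteases release the active ligand. In liver, TGFb1 is known as the main cytokine driving stellate cells to a myofibroblast state.

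All 7 genes were expressed in every group, with Ltbp3 and Tgfb1 the highest in each. In TGFb with Bmal1 siRNA the order of mean levels was Ltbp3, Tgfb1, Ltbp1, Ltbp4, Tgfb3, Ltbp2 and Tgfb2. There the values of Ltbp1 and Ltbp4 overlapped between libraries, as did those of Tgfb3 and Ltbp2 and those of Ltbp2 and Tgfb2. In TGFb with scrambled siRNA the order was Ltbp3, Tgfb1, Ltbp1, Ltbp2, Ltbp4, Tgfb3 and Tgfb2, with no overlap between neighbours. In vehicle the order was Ltbp3, Tgfb1, Tgfb3, Ltbp4, Tgfb2, Ltbp1 and Ltbp2 with either siRNA, and of neighbours only Ltbp4 and Tgfb2 overlapped. In vehicle with scrambled siRNA, Ltbp3 averaged 80.5 FPKM and lay above 90.8% of the tested genes, and Ltbp2 averaged 8.34 FPKM and lay above 37.6%.

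The upstream sequence is shown for the 3 genes with the widest TGFb responses for which a promoter entry was at hand, since Bmal1 is known to bind E-boxes and Smad proteins the short SMAD box. Entries of RefSeq (GRCm38.p6) matched 6 of the 7 genes with 9 windows. Tgfb3 had no entry. Each sequence is the 250 bases before the annotated start on the strand of the gene, 5′ to 3′, and capitals mark every match on either strand to CACGTG (E-box), TGANTCA (AP-1 site), TGACGTCA (CRE) or CAGAC (SMAD box). The windows are chr1:186705990-186706239 on the minus strand for Tgfb2, chr17:75005279-75005528 on the plus strand for the first Ltbp1 start, and chr12:84876492-84876741 on the minus strand for Ltbp2.
Tgfb2: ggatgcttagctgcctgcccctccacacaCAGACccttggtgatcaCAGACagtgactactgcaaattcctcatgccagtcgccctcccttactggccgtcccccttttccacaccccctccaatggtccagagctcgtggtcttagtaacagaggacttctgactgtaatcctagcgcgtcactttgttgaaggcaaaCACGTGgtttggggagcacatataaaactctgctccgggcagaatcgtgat
Ltbp1: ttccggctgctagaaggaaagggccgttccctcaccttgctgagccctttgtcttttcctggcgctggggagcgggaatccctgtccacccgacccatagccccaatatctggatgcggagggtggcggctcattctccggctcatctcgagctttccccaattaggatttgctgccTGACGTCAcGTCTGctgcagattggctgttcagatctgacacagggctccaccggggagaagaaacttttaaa
Ltbp2: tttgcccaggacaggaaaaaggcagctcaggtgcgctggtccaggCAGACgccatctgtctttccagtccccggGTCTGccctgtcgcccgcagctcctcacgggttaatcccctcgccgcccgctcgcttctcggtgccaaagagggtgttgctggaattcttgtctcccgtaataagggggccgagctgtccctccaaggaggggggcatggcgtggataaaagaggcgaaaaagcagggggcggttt
The Tgfb2 window holds an E-box that begins 51 bases before the start and SMAD boxes at 221 and 204 bases. In the Ltbp1 window a CRE begins at 73 bases and a SMAD box at 64 bases, and in the Ltbp2 window SMAD boxes begin at 205 and 176 bases. The second Ltbp1 window has SMAD boxes at 148 and 97 bases, the Ltbp3 window has a SMAD box at 58 bases, and the windows of Tgfb1 and Ltbp4 hold no match to these letters. No window of the 6 genes holds an AP-1 match. Over all 32851 windows of this length, 6.02% hold the E-box letters, 6.75% the AP-1 letters, 1.55% the CRE letters and 42.2% the SMAD box letters. A match is only a match of letters, and binding was not measured.

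Arntl, the targeted gene, had 5.05, 4.01 and 4.0 FPKM in TGFb with Bmal1 siRNA and 10.5, 10.8 and 10.9 FPKM in TGFb with scrambled siRNA. It had 3.90, 3.87 and 3.59 FPKM in vehicle with Bmal1 siRNA, against 5.43, 5.19 and 4.91 FPKM in vehicle with scrambled siRNA. With Bmal1 siRNA its mean fell by 59.3% under TGFb (adjusted p = 1.38e-06, limma) and fell by 26.9% under vehicle (adjusted p = 0.0490, limma). The second library of TGFb with Bmal1 siRNA stood apart from its group: on the first principal component, with 71% of the variance, it lay at -5.13, against 13.0 and 8.40 for the other two, and the vehicle libraries lay between -17.8 and -15.4. For 5 of the 7 genes this library was nearer to the mean of vehicle with Bmal1 siRNA than any other library of its group, and changes of the 7 genes that move by over 1.5 times without it are given both ways. Of 18 stellate cell markers, 16 were in the expression table and 12 were tested. Lrat and Reln were not in the expression table. Col1a1, Vim and Pdgfrb were among those tested, as was Des, with group means of only 0.59 to 1.03 FPKM. Gfap, Ngfr, Rgs5 and Hgf stayed under 0.5 FPKM in every library. The stellate marker sum was mostly Col1a1, Col1a2 and Vim. In TGFb it was 6510 to 6768 FPKM with Bmal1 siRNA and 7163 to 7579 with scrambled siRNA. In vehicle it was 5571 to 5918 FPKM with Bmal1 siRNA and 5194 to 5585 with scrambled siRNA. With TGFb under Bmal1 siRNA 5 stellate markers were called higher and 2, Pdgfra and Dcn, lower. Under scrambled siRNA 5 were called higher and 3, Pdgfra, Dcn and Hand2, lower. Over all tested genes 19% and 45.5% were called in these comparisons. Lyz2, Laptm5 and Itgam of macrophages and Pecam1 and Cdh5 of endothelium also stayed under 0.5 FPKM in every library. Other genes of those lists were expressed, with group means of 4.66 to 7.81 FPKM for Cd14, 2.86 to 4.28 for Cd68, 0.317 to 1.47 for Fcer1g, 4.83 to 7.20 for Egfl7 and 1.31 to 2.65 for Tek. With TGFb none of these 5 was called with Bmal1 siRNA, while with scrambled siRNA Cd14, Cd68 and Egfl7 fell and Fcer1g rose. The part of these genes in the results was not tested. In this bulk RNA, fewer cells expressing a gene and less RNA per cell cannot be told apart.

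TGFb changed all 7 genes in cells with scrambled siRNA, and the direction differed within the ligand family. Tgfb1, the isoform most tied to fibrosis, rose, while Tgfb2 and Tgfb3, which are known for roles in heart and palate development, fell. All 4 latent binding protein genes rose, Ltbp2 most and Ltbp4 least. By limma on log2(FPKM + 1), with p-values adjusted over 11208 genes and called under 0.05, 5 of the 7 genes were called higher and 2 lower, where 45.5% of all tested genes were called, 16.4% higher and 29.1% lower. The groups did not overlap for any of the 7 genes, and did not overlap for 55% of all tested genes. The median log2 change of the 7 genes was 0.51, against -0.05 over all tested genes. The split of calls depends on scaling: 36.1% of all calls in this comparison were higher on the deposited scale, 49.8% with median-of-ratios scaling, 45.6% with equal totals and 47.5% with quantile normalization. The calls and directions of the 7 genes were the same under each of these scalings.

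**Figure D1:**
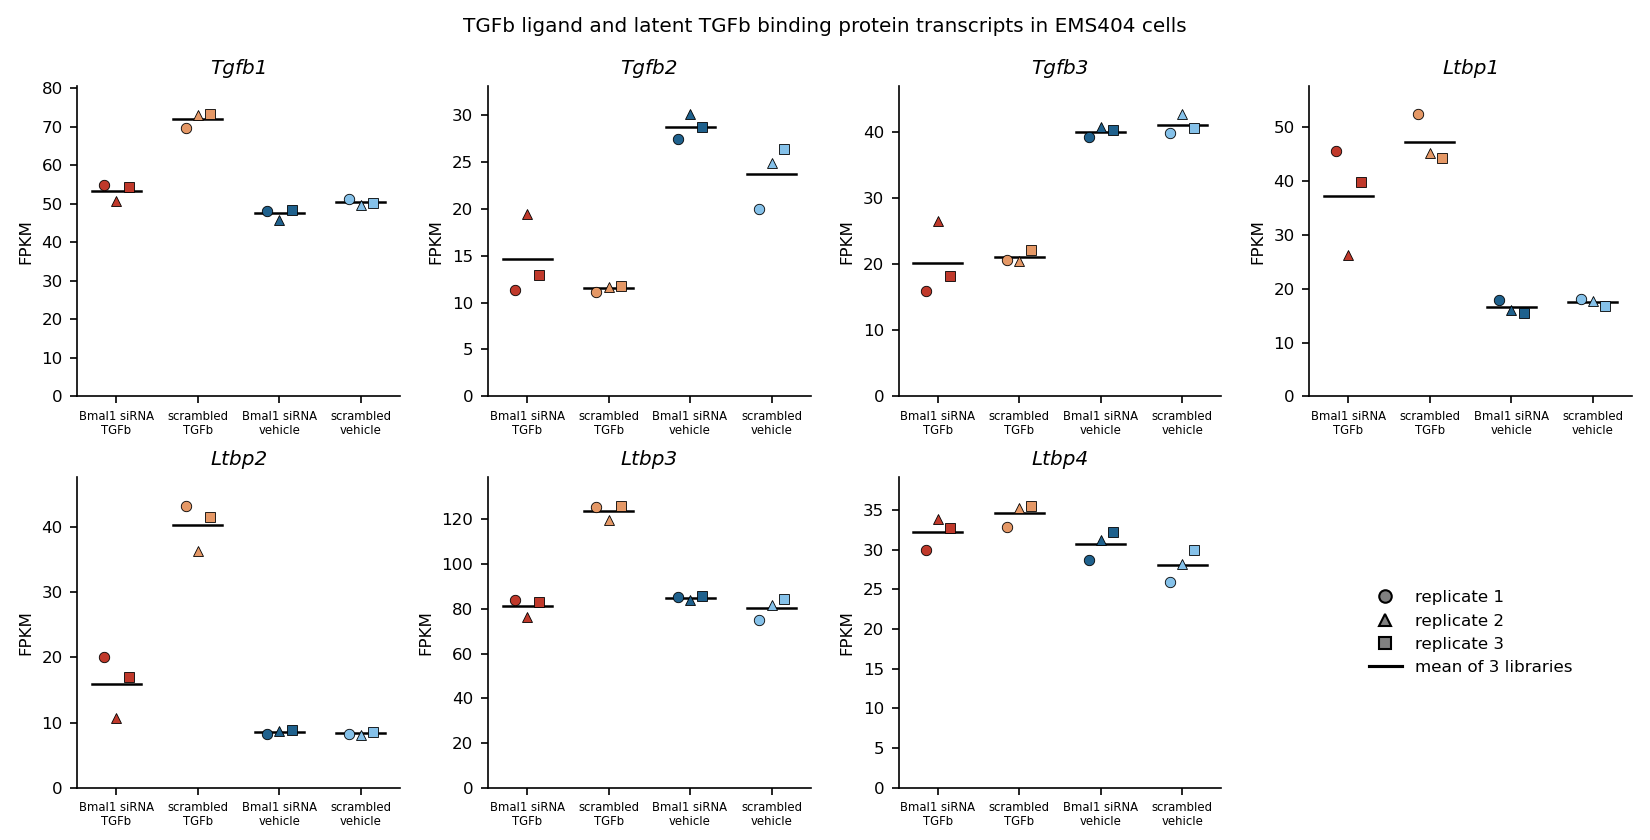
Level of each of the 7 genes in FPKM (linear axis from 0) in every library, with 1 panel per gene and the 4 groups along the axis; symbols mark replicates and lines the mean of 3 libraries. Ltbp2 reached 36.3 to 43.2 FPKM in TGFb with scrambled siRNA and stayed at or below 20.0 FPKM in the other groups, while Tgfb2 and Tgfb3 were lower with TGFb under both siRNAs.

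Tgfb1 had 54.9, 50.8 and 54.3 FPKM in TGFb with Bmal1 siRNA and 69.5, 73.0 and 73.2 FPKM in TGFb with scrambled siRNA. It had 48.2, 45.9 and 48.4 FPKM in vehicle with Bmal1 siRNA and 51.3, 49.7 and 50.1 FPKM in vehicle with scrambled siRNA. The libraries of TGFb with scrambled siRNA were the highest and overlapped with no other group. With Bmal1 siRNA the mean rose 1.12-fold with TGFb (log2 change 0.16, 95% interval 0.07 to 0.26, adjusted p = 0.0207, limma). With scrambled siRNA it rose 1.43-fold (log2 change 0.51, 95% interval 0.41 to 0.60, adjusted p = 1.23e-06, limma). The call with Bmal1 siRNA was lost, with adjusted p-values of 0.0609 to 0.0976, when replicate 1 or 3 of TGFb with Bmal1 siRNA or replicate 2 of vehicle with Bmal1 siRNA was left out, or when only the compared groups entered the fit.

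Tgfb2 and Tgfb3 behaved alike, with lower levels in all TGFb libraries than in any vehicle library. Tgfb2 had 11.4, 19.4 and 13.0 FPKM in TGFb with Bmal1 siRNA and 11.2, 11.6 and 11.7 FPKM in TGFb with scrambled siRNA. In vehicle it had 27.4, 30.1 and 28.7 FPKM with Bmal1 siRNA and 20.0, 24.8 and 26.4 FPKM with scrambled siRNA. The second library of TGFb with Bmal1 siRNA was the highest of the TGFb libraries and came close to the lowest vehicle library. With TGFb, Tgfb2 had a log2 change of -0.96 with Bmal1 siRNA (95% interval -1.27 to -0.65, adjusted p = 0.000678, limma) and -0.97 with scrambled siRNA (95% interval -1.29 to -0.66, adjusted p = 0.000112, limma). In the annotation of mm10 the exons of Tgfb2 share 124 bases with the antisense gene Gm29491, and the sources used here do not give whether counting used strand.

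Tgfb3 had 15.9, 26.5 and 18.1 FPKM in TGFb with Bmal1 siRNA and 20.7, 20.5 and 22.1 FPKM in TGFb with scrambled siRNA. In vehicle it had 39.1, 40.7 and 40.2 FPKM with Bmal1 siRNA and 39.8, 42.6 and 40.5 FPKM with scrambled siRNA. The groups were thus apart by treatment and overlapped by siRNA. TGFb gave Tgfb3 a log2 change of -0.98 with Bmal1 siRNA (95% interval -1.25 to -0.71, adjusted p = 0.000227, limma) and -0.93 with scrambled siRNA (95% interval -1.20 to -0.66, adjusted p = 4.96e-05, limma). Its exons share 257 bases with Gm48008 and 163 bases with Gm37804. Of 7 tested mesothelial markers out of 8, with Muc16 under 0.5 FPKM in every library, 5 fell and 0 rose with TGFb under Bmal1 siRNA, and 6 fell and 1, Msln, rose under scrambled siRNA. Their summed level, of which Upk3b is the largest part in vehicle, was 125.5 to 216.2 FPKM in TGFb with Bmal1 siRNA and 129.3 to 173.9 in TGFb with scrambled siRNA, against 372.1 to 407.1 in vehicle with Bmal1 siRNA and 332.6 to 383.9 in vehicle with scrambled siRNA. Of 10 hepatocyte markers 3 were tested, and Trf and Ahsg fell while Ass1 rose with TGFb under either siRNA. Apoa1, Cps1 and Hnf4a were under 0.5 FPKM in every library. The hepatocyte sum, most of it Trf, was 61.7 to 116.5 FPKM in TGFb with Bmal1 siRNA and 70.6 to 93.1 in TGFb with scrambled siRNA, against 214.4 to 249.8 in vehicle with Bmal1 siRNA and 198.8 to 219.6 in vehicle with scrambled siRNA. The part of either list in the falls of Tgfb2 and Tgfb3 was not tested.

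Ltbp1, which links latent TGFb to fibronectin and fibrillin matrix, had 45.6, 26.2 and 39.8 FPKM in TGFb with Bmal1 siRNA and 52.4, 45.2 and 44.2 FPKM in TGFb with scrambled siRNA. In vehicle it had 18.0, 16.1 and 15.5 FPKM with Bmal1 siRNA and 18.1, 17.7 and 16.8 FPKM with scrambled siRNA. Every TGFb library was above every vehicle library, and the 2 TGFb groups overlapped. The mean was 2.25-fold higher with TGFb under Bmal1 siRNA (log2 change 1.09, 95% interval 0.77 to 1.41, adjusted p = 0.000314, limma). Under scrambled siRNA it was 2.69-fold higher (log2 change 1.38, 95% interval 1.06 to 1.69, adjusted p = 6.27e-06, limma).

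Ltbp2, the fibrillin-binding family member, had 20.0, 10.8 and 17.0 FPKM in TGFb with Bmal1 siRNA and 43.2, 36.3 and 41.5 FPKM in TGFb with scrambled siRNA. In vehicle it had 8.21, 8.75 and 8.80 FPKM with Bmal1 siRNA and 8.24, 8.15 and 8.63 FPKM with scrambled siRNA. The TGFb groups were apart from each other and from vehicle, and the vehicle groups overlapped. Its mean was 1.86-fold higher with TGFb under Bmal1 siRNA (log2 change 0.78, 95% interval 0.45 to 1.11, adjusted p = 0.00325, limma), and the log2 change was 1.02 without the second TGFb library. Under scrambled siRNA it was 4.84-fold higher (log2 change 2.14, 95% interval 1.82 to 2.47, adjusted p = 2.09e-07, limma). Exons of Ltbp2 share 764 bases with the antisense gene D030025P21Rik.

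Ltbp3, the most abundant of the 7 and a known binder of latent TGFb in bone and other tissues, had 84.0, 76.5 and 83.1 FPKM in TGFb with Bmal1 siRNA and 125.7, 119.6 and 126.1 FPKM in TGFb with scrambled siRNA. In vehicle it had 85.3, 84.1 and 85.8 FPKM with Bmal1 siRNA and 75.1, 81.9 and 84.5 FPKM with scrambled siRNA. Only the libraries of TGFb with scrambled siRNA stood above the rest. Under Bmal1 siRNA the log2 change with TGFb was -0.07 (95% interval -0.18 to 0.04, adjusted p = 0.402, limma), and -0.03 without the second TGFb library. Under scrambled siRNA the mean was 1.54-fold higher with TGFb (log2 change 0.62, 95% interval 0.50 to 0.73, adjusted p = 9.09e-07, limma).

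Ltbp4, which is known for its part in elastic fibre assembly as well as in TGFb storage, had 29.9, 33.8 and 32.8 FPKM in TGFb with Bmal1 siRNA and 32.9, 35.3 and 35.5 FPKM in TGFb with scrambled siRNA. In vehicle it had 28.7, 31.2 and 32.2 FPKM with Bmal1 siRNA and 25.9, 28.2 and 29.9 FPKM with scrambled siRNA. The Bmal1 siRNA groups overlapped, and the scrambled groups were apart. With Bmal1 siRNA the log2 change with TGFb was 0.07 (95% interval -0.07 to 0.21, adjusted p = 0.520, limma), and 0.03 without the second TGFb library. With scrambled siRNA it rose 1.23-fold (log2 change 0.30, 95% interval 0.15 to 0.44, adjusted p = 0.00237, limma). Of 5 tested cholangiocyte markers out of 8, Spp1 rose and Krt7 fell with TGFb under Bmal1 siRNA, and under scrambled siRNA Spp1, Sox9 and Krt8 rose and Krt19 and Krt7 fell. Epcam and Cftr were under 0.5 FPKM in every library. The cholangiocyte sum, most of it Spp1, was 105.5 to 189.5 FPKM in TGFb with Bmal1 siRNA and 212.4 to 231.5 in TGFb with scrambled siRNA, against 82.4 to 93.6 in vehicle with Bmal1 siRNA and 77.7 to 89.0 in vehicle with scrambled siRNA. The part of these genes in the rises of the Ltbp family was not tested.

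With Bmal1 siRNA, TGFb thus raised Tgfb1, Ltbp1 and Ltbp2 and lowered Tgfb2 and Tgfb3, 3 of 7 genes called higher and 2 lower. Over all tested genes 19% were called in this comparison, 8.9% higher and 10.1% lower. The groups did not overlap for 6 of the 7 genes and for 35.4% of all tested genes. The median log2 change was 0.07 for the 7 genes, or 0.03 without the second TGFb library, and 0.00 over all tested genes. As a share of the log2 change with scrambled siRNA, the change with Bmal1 siRNA was 106.1% for Tgfb3, 98.7% for Tgfb2, 79.3% for Ltbp1, 36.5% for Ltbp2 and 32.4% for Tgfb1. For Ltbp3 and Ltbp4 the change with Bmal1 siRNA did not pass the test, and no share is given. The shares carry no interval and depend on the second TGFb library. Without it the log2 changes with Bmal1 siRNA were -1.19 for Tgfb3, -1.17 for Tgfb2, 1.32 for Ltbp1, 1.02 for Ltbp2 and 0.20 for Tgfb1.

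Under TGFb, Bmal1 siRNA lowered Ltbp2, Ltbp3 and Tgfb1 relative to scrambled siRNA. The mean of Ltbp2 fell by 60.5% (log2 change -1.32, 95% interval -1.65 to -1.0, adjusted p = 6.70e-05, limma). The mean of Ltbp3 fell by 34.4% (log2 change -0.60, 95% interval -0.72 to -0.49, adjusted p = 7.25e-06, limma), and that of Tgfb1 fell by 25.9% (log2 change -0.43, 95% interval -0.52 to -0.33, adjusted p = 3.28e-05, limma). None of the 7 was called higher, where 23.2% of all tested genes were called, 7.16% lower and 16% higher. The groups did not overlap for these 3 genes, and did not overlap for 39.2% of all tested genes. The share of all calls that were higher was 69.1% on the deposited scale, 44.9% with median-of-ratios scaling, 58.9% with equal totals and 53.3% with quantile normalization. The 3 calls held under each of those scalings.

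The other 4 genes did not pass the test between siRNAs under TGFb, and their intervals leave room for change. The log2 change of Ltbp1 was -0.37 (95% interval -0.69 to -0.06, adjusted p = 0.0832, limma), with overlapping groups. Without the second library of TGFb with Bmal1 siRNA it was -0.14 (adjusted p = 0.263), and without the first it was -0.53 and called (adjusted p = 0.0116). The log2 change of Tgfb2 was 0.28 (95% interval -0.03 to 0.60, adjusted p = 0.171, limma), and again moved with single libraries. It was 0.07 without that second library (adjusted p = 0.643), and 0.44 and called without the first (adjusted p = 0.0329). The log2 change of Tgfb3 was -0.09 (95% interval -0.36 to 0.18, adjusted p = 0.636, limma). Without the second library of TGFb with Bmal1 siRNA it was -0.29 and called (adjusted p = 0.00460), and without the first it was 0.06. For Ltbp4 the log2 change was -0.10 (95% interval -0.24 to 0.04, adjusted p = 0.282, limma).

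In vehicle none of the 7 genes passed the test between Bmal1 and scrambled siRNA by limma, and 0 had an unadjusted p under 0.05. Over all tested genes 0.66% were called, 0.294% higher and 0.366% lower. That share depended strongly on the fit. It rested on 33 genes higher and 41 lower, against 244 and 296 with the replicate block and 718 and 772 with array weights. Without the second library of TGFb with Bmal1 siRNA 204 were higher and 268 lower. Without replicate 3 of vehicle with Bmal1 siRNA 0 were higher and 2 lower. None of the 7 genes was called in any of these fits. The widest log2 change was that of Tgfb2, 0.27 (95% interval -0.04 to 0.58, adjusted p = 0.281, limma), with a mean of 28.7 FPKM with Bmal1 siRNA and 23.7 FPKM with scrambled siRNA. The vehicle groups did not overlap for Tgfb2 and Tgfb1, and for 31.7% of all tested genes. The log2 change of Tgfb1 was -0.08 (95% interval -0.18 to 0.01, adjusted p = 0.279, limma). For Ltbp2 it was 0.04 (95% interval -0.29 to 0.36, adjusted p = 0.907, limma) and for Ltbp3 0.08 (95% interval -0.03 to 0.19, adjusted p = 0.378, limma).

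The difference between the TGFb responses under the 2 siRNAs was tested as an interaction, the log2 response with Bmal1 siRNA minus that with scrambled siRNA. It was called for Ltbp2 (-1.36, 95% interval -1.82 to -0.90, adjusted p = 0.00139, limma), for Ltbp3 (-0.68, 95% interval -0.84 to -0.53, adjusted p = 0.000105, limma) and for Tgfb1 (-0.34, 95% interval -0.48 to -0.21, adjusted p = 0.00379, limma). Thus 3 of the 7 genes were called lower and 0 higher, where 14.4% of all tested genes were called, 5.52% lower and 8.86% higher. Of all interaction calls 61.6% were higher on the deposited scale, 42.1% with median-of-ratios scaling, 44.3% with equal totals and 49.4% with quantile normalization. Without the second library of TGFb with Bmal1 siRNA the interaction was -1.12 for Ltbp2, -0.64 for Ltbp3 and -0.31 for Tgfb1, each still called.

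For the remaining 4 genes the interaction did not pass the test. It was -0.23 for Ltbp4 (95% interval -0.43 to -0.03, unadjusted p = 0.0272, adjusted p = 0.117, limma) and -0.29 for Ltbp1 (95% interval -0.73 to 0.16, adjusted p = 0.387, limma). Without the second library of TGFb with Bmal1 siRNA that of Ltbp1 was -0.06 (adjusted p = 0.769). For Tgfb2 it was 0.01 (95% interval -0.43 to 0.45, adjusted p = 0.976, limma), and -0.20 without that library (adjusted p = 0.315). For Tgfb3 it was -0.06 (95% interval -0.44 to 0.32, adjusted p = 0.866, limma), and -0.26 and called without the second library of TGFb with Bmal1 siRNA (adjusted p = 0.0458). The intervals of Tgfb2 and Tgfb3 therefore do not show that the falls were alike under both siRNAs.

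**Figure D2:**
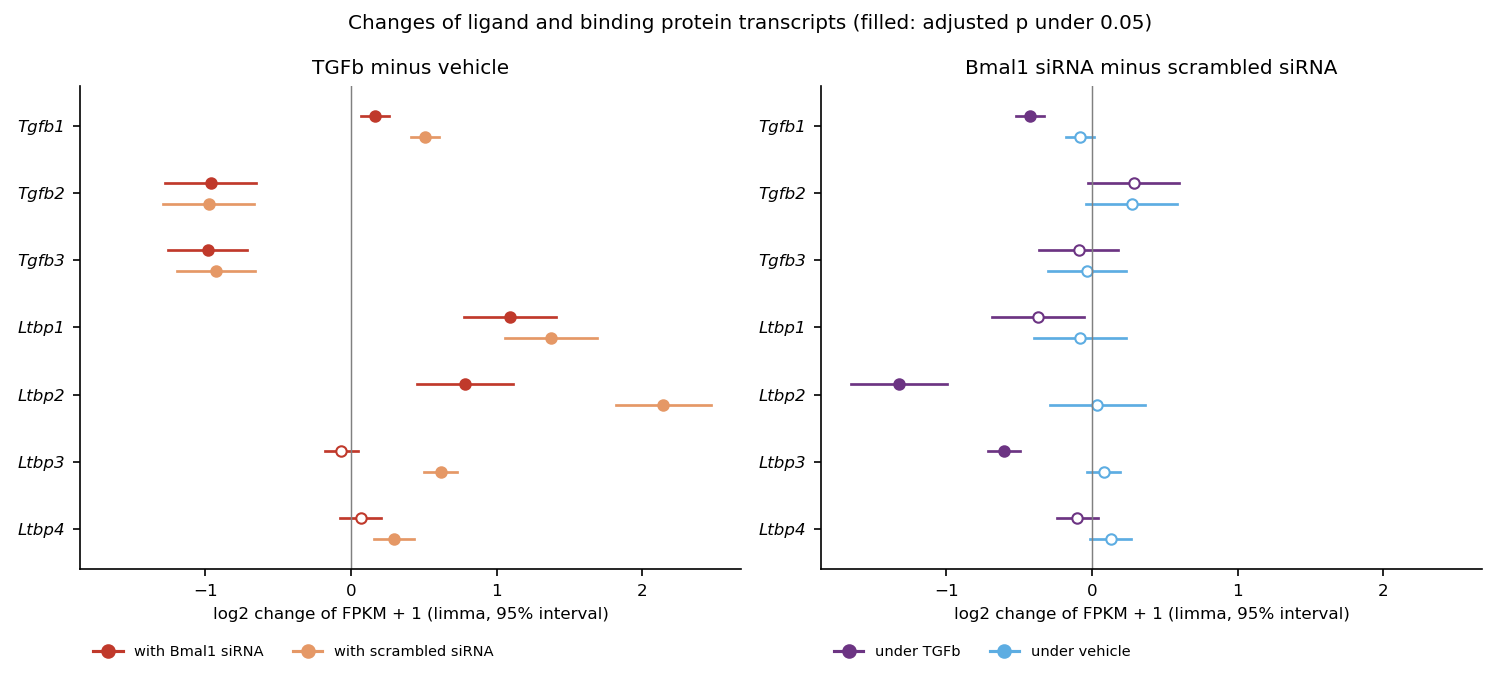
Fitted log2 changes of FPKM + 1 with 95% intervals for the 7 genes, each a difference between means of 3 libraries: TGFb minus vehicle under each siRNA (left) and Bmal1 minus scrambled siRNA under each treatment (right), with filled points called at an adjusted p under 0.05. Under TGFb the siRNA changes of Ltbp2 (-1.32), Ltbp3 (-0.60) and Tgfb1 (-0.43) are filled and lie below 0, and with TGFb Tgfb2 and Tgfb3 lie near -1 under both siRNAs.

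The make-up of the ligand transcripts shifted towards Tgfb1 with TGFb. Tgfb1 made up 61.0 ± 7.50% of the summed ligand FPKM in TGFb with Bmal1 siRNA and 68.8 ± 0.587% in TGFb with scrambled siRNA, against 40.9 ± 1.38% in vehicle with Bmal1 siRNA and 43.8 ± 2.06% in vehicle with scrambled siRNA (SD, n = 3 each). By library the share was 66.8, 52.5 and 63.6% in TGFb with Bmal1 siRNA and 68.6, 69.5 and 68.4% in TGFb with scrambled siRNA, and no vehicle library exceeded 46.2%. The summed ligand level was 88.1 ± 7.60 FPKM in TGFb with Bmal1 siRNA and 105 ± 2.90 FPKM in TGFb with scrambled siRNA, against 116 ± 1.32 FPKM in vehicle with Bmal1 siRNA and 115 ± 3.42 FPKM in vehicle with scrambled siRNA (SD, n = 3 each). On the deposited scale the sum was lower in the TGFb groups although Tgfb1 was higher there. With scrambled siRNA the gap was small, 101.4 to 107.1 FPKM with TGFb against 111.1 to 117.1 FPKM in vehicle. The sums were not recomputed under other scalings.

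Summed over the 4 genes, the latent binding protein level was 167 ± 17.0 FPKM in TGFb with Bmal1 siRNA and 246 ± 9.01 FPKM in TGFb with scrambled siRNA, against 141 ± 1.29 FPKM in vehicle with Bmal1 siRNA and 134 ± 6.4 FPKM in vehicle with scrambled siRNA (SD, n = 3 each). The ratio of that sum to the ligand sum was 2.18, 1.52 and 2.02 in TGFb with Bmal1 siRNA and 2.51, 2.25 and 2.31 in TGFb with scrambled siRNA. It was 1.22, 1.2 and 1.22 in vehicle with Bmal1 siRNA and 1.15, 1.16 and 1.2 in vehicle with scrambled siRNA. All TGFb libraries were above all vehicle libraries. Without Ltbp2, which is not known to bind latent TGFb, the ratio averaged 1.73 ± 0.278 in TGFb with Bmal1 siRNA and 1.97 ± 0.0978 in TGFb with scrambled siRNA, against 1.14 ± 0.0118 in vehicle with Bmal1 siRNA and 1.1 ± 0.0253 in vehicle with scrambled siRNA (SD, n = 3 each). These sums are of transcripts and say nothing of secreted protein, and no test was made on them.

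**Figure D3:**
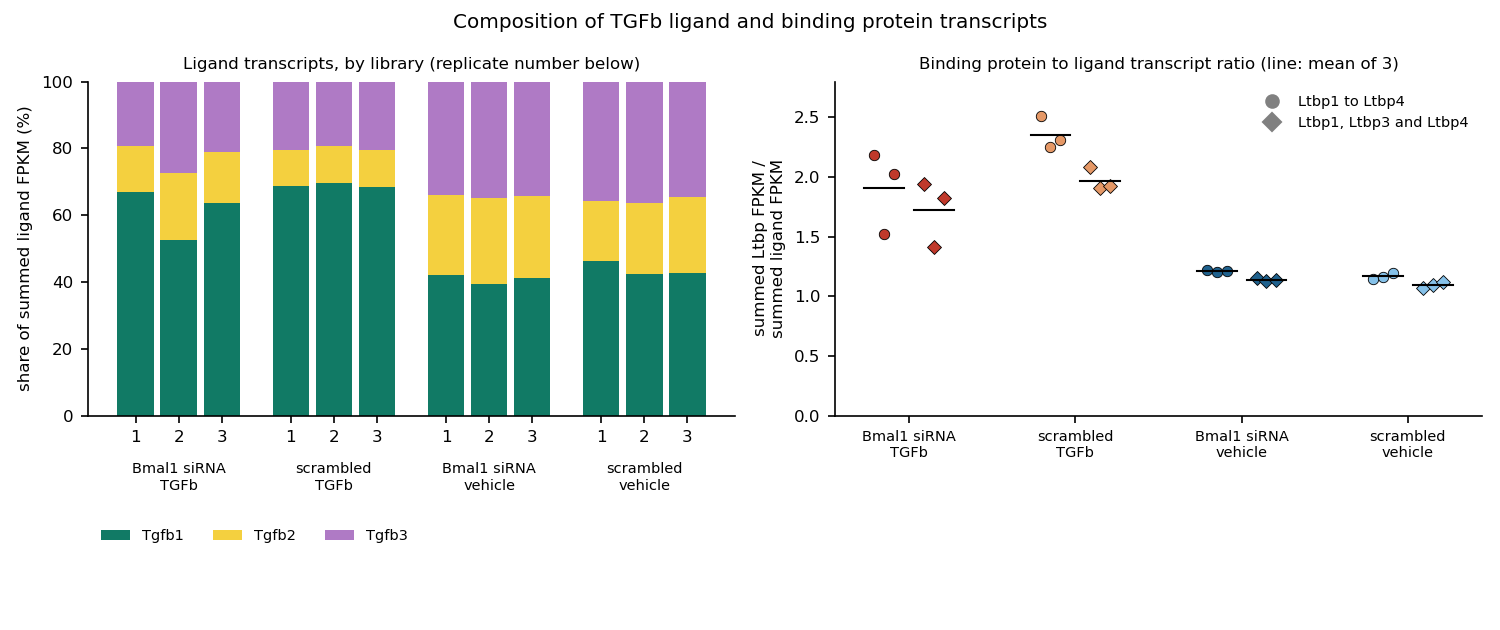
Left, stacked bars of the share of each ligand gene in the summed ligand FPKM, in percent, by library; right, the ratio of summed latent binding protein FPKM to summed ligand FPKM by library, with all 4 binding protein genes (circles) or without Ltbp2 (diamonds) and lines at the mean of 3. The Tgfb1 share is 52.5 to 69.5% in the TGFb libraries and 39.4 to 46.2% in the vehicle libraries.

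For the 4 members whose group means spanned at least 1 on the log2 scale, the genes with the most similar pattern over the 12 libraries were listed by the root mean square difference of centred log2(FPKM + 1) values. The nearest to Ltbp2 were Ldlrad4 (0.120), a membrane protein known to inhibit TGFb signalling, the receptor phosphatase gene Ptprb (0.120) and Inava (0.135). Ldlrad4 averaged 5.87 FPKM in TGFb with Bmal1 siRNA and 15.7 FPKM in TGFb with scrambled siRNA, against 2.86 FPKM in vehicle with Bmal1 siRNA and 2.23 FPKM in vehicle with scrambled siRNA. Nearest to Ltbp1 were Vcan (0.129), which encodes the matrix proteoglycan versican, Spp1 (0.131), which encodes osteopontin, and Prkg2 (0.142). Vcan averaged 23.1 FPKM in TGFb with Bmal1 siRNA and 31.9 FPKM in TGFb with scrambled siRNA, against 9.85 FPKM in vehicle with Bmal1 siRNA and 9.41 FPKM in vehicle with scrambled siRNA.

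Ak5 (0.0601), an adenylate kinase gene, Mindy2 (0.0860) and C4b (0.0882) were nearest to Tgfb2. C4b is nearly identical to C4a, and its counts are uncertain. It averaged 0.46 FPKM in TGFb with Bmal1 siRNA and 0.2 FPKM in TGFb with scrambled siRNA. In vehicle C4b averaged 1.94 FPKM with Bmal1 siRNA and 1.69 FPKM with scrambled siRNA. St3gal1 (0.119), Syne4 (0.131) and Aldoc (0.141) were nearest to Tgfb3. Group means ran from 0.533 to 1.91 FPKM for Syne4 and from 0.35 to 1.42 FPKM for Aldoc. At such levels the 1 added before taking logs shrinks changes. The closeness of C4b, Syne4 and Aldoc is therefore one of shrunken values and not of fold changes. Among the 7 genes themselves, the closest pair was Tgfb2 and Tgfb3 at 0.188, and Ltbp1 and Ltbp2 were 0.369 apart. The group means of Tgfb1, Ltbp3 and Ltbp4 spanned 0.59, 0.62 and 0.30 on the log2 scale.

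Called genes from a list drawn up around the activation of latent TGFb were more often higher than lower with TGFb. For the counts of this and the following lists, 8.9% of all tested genes were called higher and 10.1% lower with TGFb under Bmal1 siRNA, and 16.4% higher and 29.1% lower under scrambled siRNA. Between siRNAs under TGFb 16% were called higher and 7.16% lower, and for the interaction 8.86% higher and 5.52% lower. Of 18 tested genes of the 22 listed as activators, 9 rose and 4 fell with Bmal1 siRNA. With scrambled siRNA 12 rose and 5 fell, with a median log2 change of 0.71, against -0.05 over all tested genes. Under TGFb, 10 were lower and 3 higher with Bmal1 than with scrambled siRNA, and the interaction was lower for 10 and higher for 2, or 1 with median-of-ratios scaling. Mmp2, a gelatinase that can cleave latent TGFb, averaged 23.6 ± 3.46 FPKM in TGFb with Bmal1 siRNA and 55.4 ± 6.35 FPKM in TGFb with scrambled siRNA, against 8.56 ± 0.169 FPKM in vehicle with Bmal1 siRNA and 7.10 ± 0.649 FPKM in vehicle with scrambled siRNA (SD, n = 3 each). TGFb changed it by 1.35 on the log2 scale under Bmal1 and by 2.8 under scrambled siRNA.

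Itgb5 and Itgb3, beta chains that pair with alpha-v in TGFb-activating integrins, rose as well. Itgb5 averaged 48.5 ± 6.01 FPKM in TGFb with Bmal1 siRNA and 87.6 ± 2.36 FPKM in TGFb with scrambled siRNA, against 32.5 ± 0.658 FPKM in vehicle with Bmal1 siRNA and 27.7 ± 0.633 FPKM in vehicle with scrambled siRNA (SD, n = 3 each). For Itgb3 the log2 change was 0.31 under Bmal1 and 1.54 under scrambled siRNA, and for the gelatinase gene Mmp9 it was 0.50 under Bmal1 and 1.65 under scrambled siRNA. Itgb8, another such beta chain, was called between siRNAs in vehicle, where it was higher with Bmal1 siRNA, 1.15 FPKM against 0.543 FPKM with scrambled siRNA. It was 1 of 18 activators called there, but 4 were called higher without the second library of TGFb with Bmal1 siRNA and 3 with the replicate block. Calls rose over all tested genes too, from 33 higher to 204 without that library and to 244 with the block. Unlike Itgb5 and Itgb3, Itgb8 fell with TGFb under scrambled siRNA (log2 change -0.31, adjusted p = 0.00444, limma). Its change of -0.23 with TGFb under Bmal1 siRNA did not pass the test (adjusted p = 0.0527, limma). Under TGFb it was higher with Bmal1 than with scrambled siRNA (log2 change 0.56, adjusted p = 0.000236, limma). Itgb6 did not exceed 0.01 FPKM in any library. Itgb8 and Itgb6 were named after their values were seen.

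Among 7 tested genes of 11 that dock latent TGFb in matrix or at the cell surface, 2 rose and 1 fell with TGFb under Bmal1 siRNA. With scrambled siRNA 3 rose and 1 fell, and 5 rose with median-of-ratios scaling. Fbn1, which encodes the fibrillin fibres that hold the LTBPs, averaged 4.28 ± 1.11 FPKM in TGFb with Bmal1 siRNA and 12.7 ± 0.862 FPKM in TGFb with scrambled siRNA, against 2.2 ± 0.153 FPKM in vehicle with Bmal1 siRNA and 1.5 ± 0.274 FPKM in vehicle with scrambled siRNA (SD, n = 3 each). Its exons share 2442 bases with the gene Gm9913. Lrrc32, which encodes GARP, a cell-surface anchor of latent TGFb, had a log2 change of 0.34 with Bmal1 and 1.65 with scrambled siRNA. It averaged 0.77 FPKM in TGFb with Bmal1 siRNA and 2.87 FPKM in TGFb with scrambled siRNA. In vehicle it averaged 0.4 FPKM with Bmal1 siRNA and 0.23 FPKM with scrambled siRNA. At such levels the 1 added before taking logs understates changes. Fbn1 and Lrrc32 were both lower with Bmal1 than with scrambled siRNA under TGFb. Their log2 changes were -1.40 (adjusted p = 1.61e-05, limma) and -1.12 (adjusted p = 1.41e-05, limma). Under TGFb 3 of the 7 docking genes were lower and 0 higher with Bmal1 siRNA, 4 were lower without the second library of TGFb with Bmal1 siRNA, and 5 were lower with median-of-ratios scaling. The interaction was lower for 3 docking genes, and for 5 without that library.

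Genes listed as extracellular TGFb traps split: of 5 tested out of 6, 1 rose and 3 fell with Bmal1 siRNA, and 2 rose and 3 fell with scrambled siRNA. Dcn, which encodes decorin, averaged 183 ± 103 FPKM in TGFb with Bmal1 siRNA and 62.8 ± 14.2 FPKM in TGFb with scrambled siRNA, against 390 ± 52.1 FPKM in vehicle with Bmal1 siRNA and 326 ± 56.5 FPKM in vehicle with scrambled siRNA (SD, n = 3 each). Tgfbr3, the betaglycan co-receptor gene, fell with a log2 change of -0.82 with Bmal1 and -1.75 with scrambled siRNA. Bgn, which encodes biglycan, had a log2 change of 0.27 with Bmal1 and 0.98 with scrambled siRNA.

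Of 8 tested receptor and Smad genes out of 9, 1 rose and 1 fell with Bmal1 siRNA, and 3 rose and 3 fell with scrambled siRNA. The 2 calls of 8 with Bmal1 siRNA stand against 19% of all tested genes, and 2 genes fell, not 1, when the second TGFb library was left out. Smad7, the inhibitory Smad that TGFb itself induces, averaged 4.24 FPKM in TGFb with Bmal1 siRNA and 9.25 FPKM in TGFb with scrambled siRNA, against 4.94 FPKM in vehicle with Bmal1 siRNA and 4.76 FPKM in vehicle with scrambled siRNA. Its change with TGFb did not pass the test with Bmal1 siRNA (adjusted p = 0.149, limma) and passed it with scrambled siRNA (adjusted p = 2.80e-06, limma). Of 10 tested ligands of other TGFb superfamily branches, out of 26 listed, 1 rose and 3 fell with Bmal1 siRNA, and 1 rose and 5 fell with scrambled siRNA. Without that second library 5 fell with Bmal1 siRNA, and with median-of-ratios scaling 2 rose with scrambled siRNA. Bmp2, a ligand of the BMP branch, averaged 13.1 FPKM in TGFb with Bmal1 siRNA and 4.99 FPKM in TGFb with scrambled siRNA, against 17.2 FPKM in vehicle with Bmal1 siRNA and 17.8 FPKM in vehicle with scrambled siRNA. TGFb gave it a log2 change of -0.37 under Bmal1 and -1.65 under scrambled siRNA. Gdf10 had log2 changes of -1.04 with Bmal1 and -2.49 with scrambled siRNA. Its mean was only 0.12 FPKM in TGFb with scrambled siRNA, against 5.31 FPKM in vehicle with scrambled siRNA, so the log2 change understates its fall. Bmp4 had -0.49 with Bmal1 siRNA, which did not pass the test, and -1.70 with scrambled siRNA.

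**Figure D4:**
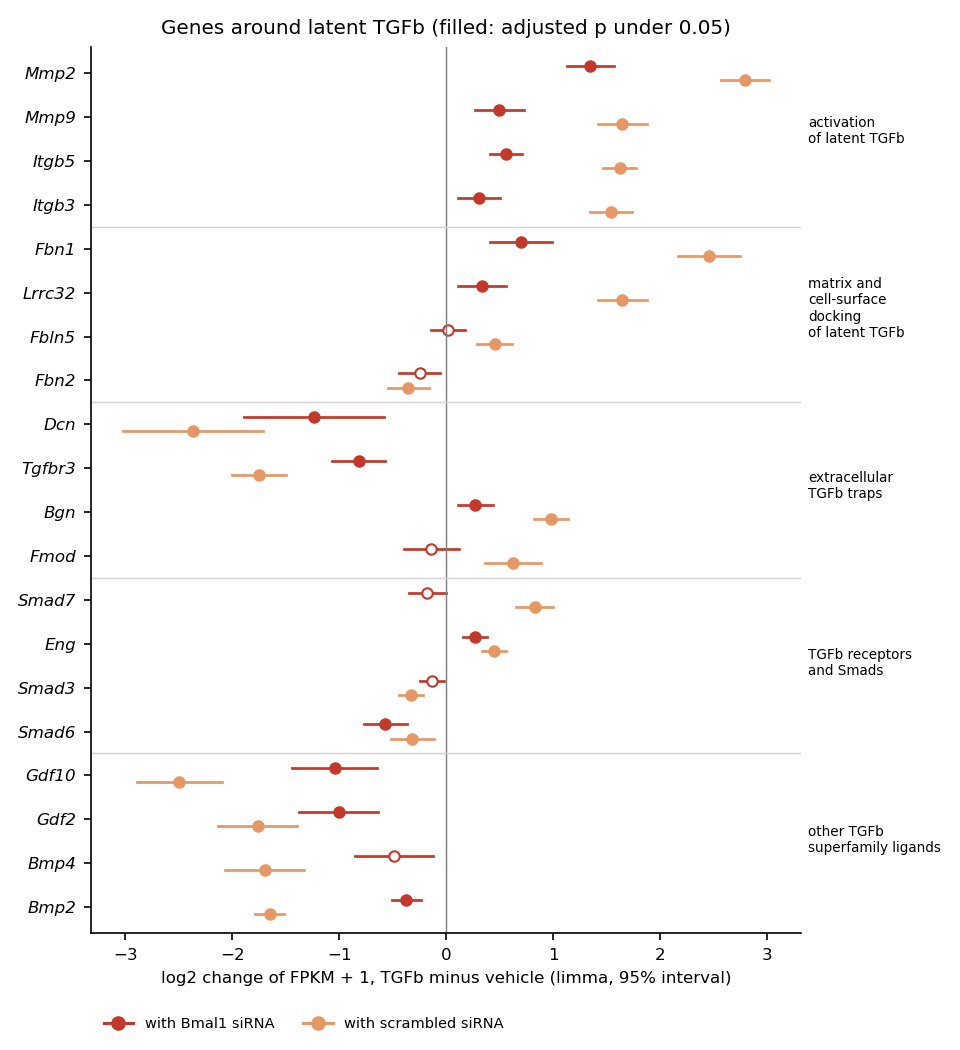
Fitted log2 change of FPKM + 1, TGFb minus vehicle, with 95% intervals, for the 20 genes named from the lists, with Bmal1 siRNA above scrambled siRNA in each row and filled points called at an adjusted p under 0.05. Fbn1 lies at 0.70 with Bmal1 siRNA and 2.46 with scrambled siRNA, and Dcn at -1.23 with Bmal1 siRNA and -2.37 with scrambled siRNA.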

How the data were processed

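Total RNA of 12 libraries was analysed, 3 per combination of siRNA and treatment, grouped by sample titles. No label says that the replicates, called biological in the series text, were separate cultures, and the p-values cover only a spread between samples that may be technical. Per the labels' protocols, RNA was prepared with 1 of 2 kits, and the sources used here do not link kits to libraries.

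Values were deposited by the authors as FPKM, per the file headers, scaled to library size. The submitters' processing notes list RSEM, DESeq2, Bowtie2 2.2.5 and HISAT2 2.0.4 with the build mm10, but no roles. FPKM are not counts: depth was estimated only roughly, at 29000000 to 31000000 fragments per library from steps between low values, where the lowest value of the 7 genes rests on about 2000 fragments. Of 16290 lines, 555 without an identifier (1.30% to 1.46% of a library's total) and 15 repeated identifiers were left out. Symbols came from GENCODE M21. Exon overlaps with other genes are given for only some of the genes named.

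limma 3.58.1 (R 4.3.3) fitted 1 mean per group to log2(FPKM + 1) over the 12 libraries. Its variance prior followed an intensity trend, with 4.99 prior and 8 residual degrees of freedom. Tests were two-sided, and Benjamini-Hochberg adjustment ran over 11208 genes whose mean reached 0.5 FPKM. The pseudocount understates changes of low genes. An exact permutation test of 3 against 3 libraries cannot go below p = 0.1. The procedure was also run on simulated data with independent normal noise of equal spread in all libraries. That run held no outlying library, so it does not cover the second library of TGFb with Bmal1 siRNA. The TGFb comparisons and siRNA comparisons share groups. Members and lists were chosen with earlier results of these data known. Named genes were all 7 members, up to 4 called genes per list with the widest log2 change with TGFb under scrambled siRNA, and the 3 nearest patterns of members spanning at least 1. Alternatives were other pseudocounts, filters, scalings and fits, and leaving out libraries.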

Additional observations from a re-analysis of the deposited data

Results flagged for a closer look

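The log2 response to TGFb differed between Bmal1 and scrambled siRNA, by the interaction term (limma, adjusted over all tested genes), for 3 of the 7 ligand and latent binding protein genes. The interaction was -0.34 for Tgfb1 (adjusted p = 0.00379), -1.36 for Ltbp2 (adjusted p = 0.00139) and -0.68 for Ltbp3 (adjusted p = 0.000105). Over all tested genes 14.4% were called, 5.52% lower and 8.86% higher. For each of the 3 genes all 3 libraries of TGFb with Bmal1 siRNA lay below all 3 of TGFb with scrambled siRNA. Those groups did not overlap for 39.2% of all tested genes, and their difference itself enters the interaction.

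The same test was passed by 14 of the 20 genes named from the lists around the pathway, against 14.4% of all tested genes. These 20 were picked for a wide change with TGFb under scrambled siRNA, a value that enters the interaction, so the count is a description and nothing is read from it. Among activators it was -1.45 for Mmp2, -1.15 for Mmp9, -1.07 for Itgb5 and -1.24 for Itgb3. Among docking genes it was -1.76 for Fbn1, -1.31 for Lrrc32 and -0.44 for Fbln5. Among traps it was 0.93 for Tgfbr3, -0.70 for Bgn and -0.76 for Fmod. It was -1.01 for Smad7, and for superfamily ligands 1.45 for Gdf10, 1.21 for Bmp4 and 1.28 for Bmp2. The adjusted p-values of these 14 genes ran from 7.74e-06 for Bmp2 to 0.0157 for Fbln5.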

How the results depend on the processing

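Of 868 recomputed log2 changes of the 7 genes, 839 kept their direction and side of the threshold, 4 lost a call, 10 gained one and 15 changed sign, none of the last among called changes. Of 18 called changes, 17 kept their call throughout, the exception being Tgfb1 with TGFb under Bmal1 siRNA. Of 124 counts of called members, 122 stayed within 1.5 times. Under TGFb the siRNA comparison gave 5 called genes with array weights (Ltbp1 and Tgfb3 added) and 3 to 5 when a library was left out. No comparison had all 3 correlations of same-numbered libraries over 0.1, so the numbers were not taken to pair the samples. The correlations ran from -0.149 to 0.475 within the comparisons, and 2 to 4 of 6 libraries correlated best with their own number. Between vehicle with Bmal1 siRNA and TGFb with scrambled siRNA, which were not compared, they were 0.419, 0.222 and 0.203, so some sharing by number is not excluded. With the replicate block the counts of called members were 5 and 7 for TGFb with Bmal1 and scrambled siRNA, 4 and 0 for the siRNA under TGFb and vehicle, and 4 for the interaction, where Ltbp1 under TGFb (adjusted p = 0.0390) and the Ltbp4 interaction (adjusted p = 0.0213) were added. The Tgfb3 change between siRNAs ran from -0.294 to 0.0553 under TGFb over left-out libraries and was 0.0028 in vehicle with quantile normalization. The Tgfb2 interaction turned to -0.009961 with a pseudocount of 5, -0.044 with median-of-ratios scaling, -0.049 with equal totals, -0.048 with quantile normalization, -0.045 with array weights and -0.19 without the second TGFb library of both siRNAs, and ran from -0.20 to 0.16 over left-out libraries. That of Tgfb3 ran from -0.26 to 0.0898. The cause was not tested. A fit of only the compared groups was not run for the interaction. Depth limits genes well below 1 FPKM.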
